A study of Mus musculus with 27 samples.

Results

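Transcripts of the glutamate receptors and of the scaffold proteins that hold them at the synapse were followed in mouse hippocampus after removal of the ovaries, with and without xanthohumol. The set was defined by gene name as 36 symbols. They covered ionotropic and metabotropic glutamate receptors, the Dlg, Shank and Homer scaffolds, the linker Dlgap1 and the CaMKII subunits Camk2a and Camk2b. All 36 were found, as 37 of the 51826 features in the gene table, because Dlg2 stands in 2 of its rows. Each of the 37 features passed the filter on low counts, as did 19969 features in all. The mRNA data held 15 libraries from the hippocampi of ICR mice in 4 groups: ovariectomized mice given xanthohumol (OVX Xmo, n = 4), ovariectomized mice given saline (OVX saline, n = 4), sham-operated mice given xanthohumol (sham Xmo, n = 4) and sham-operated mice given saline (sham saline, n = 3). Xanthohumol is a prenylated flavonoid of hops. The labels give no age, dose or duration, and do not say that replicates are separate animals, so p-values measure only the spread between these libraries.

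Glutamate carries most fast excitation in the brain. AMPA and kainate receptors are cation channels that open as soon as they bind glutamate, whereas NMDA receptors need glutamate together with glycine or D-serine and a depolarised membrane before they pass calcium. In the hippocampus this calcium activates CaMKII and leads to long-term changes in synaptic strength. Metabotropic receptors signal through G proteins, and the Dlg, Dlgap, Shank and Homer proteins form layers of the postsynaptic density that tie the receptors to each other and to the cytoskeleton.

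The 250 bases before the start of a pair of NMDA receptor genes are shown because Grin2c passed a test between groups and Grin1, its obligatory partner, passed none. The sequences are RefSeq's, on GRCm38.p6, and each ends at the base next to the first base of the deposited gene model. Capitals mark GC boxes (GGGCGG) in Grin2c and E-boxes (CACGTG) in Grin1, searched on both strands.
Grin2c, chr11:115267244-115267493, minus strand: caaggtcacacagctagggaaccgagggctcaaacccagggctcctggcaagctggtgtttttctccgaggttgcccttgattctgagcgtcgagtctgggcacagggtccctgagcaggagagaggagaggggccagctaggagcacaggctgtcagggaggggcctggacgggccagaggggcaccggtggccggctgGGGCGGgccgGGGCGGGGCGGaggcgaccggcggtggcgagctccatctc
Grin1, chr2:25319188-25319437, minus strand: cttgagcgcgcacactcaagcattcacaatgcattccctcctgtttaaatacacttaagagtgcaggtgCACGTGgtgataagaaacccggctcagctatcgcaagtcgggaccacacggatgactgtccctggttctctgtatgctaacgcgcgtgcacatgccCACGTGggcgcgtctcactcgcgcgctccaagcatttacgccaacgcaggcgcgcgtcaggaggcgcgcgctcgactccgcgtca
Grin2c had 3 GC boxes, starting 50, 40 and 35 bases before the start, of which the last pair overlap, and no E-box. Grin1 had no GC box and 2 E-boxes, starting 181 and 85 bases before the start. RefSeq's promoter table held 24 of the 36 symbols, with 38 promoters, and Grin2b was not among them. A GC box was found in 44.7% of these promoters and in 32.7% of all 32851 promoters in the table, and an E-box in 10.53% and 6.02%. The cyclic AMP response element TGACGTCA was in 0 of the 38 and in 1.55% of all. The full estrogen response element GGTCANNNTGACC was in 0 of the 38 and in 0.0639% of all.

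Library totals ran from 20848661 to 39140593 counts, and the 37 features together took 0.782% to 1.25% of them. Transcripts of the mitochondrial genome took 14.9% ± 2.03 of counts in OVX Xmo, 14.99% ± 2.17 in OVX saline, 17.2% ± 2.42 in sham Xmo and 27.0% ± 7.75 in sham saline (SD), where the single libraries had 20.2%, 35.4% and 25.5%. Comparisons between groups therefore use CPM scaled by the trimmed mean of M-values (TMM), called CPM below, while deposited TPM, which corrects for transcript length, is used for levels between genes and for ratios within a library. Hippocampal markers were present throughout: Prox1 of granule cells had 133 to 203 CPM and Wfs1 of CA1 pyramidal cells 34.3 to 143 CPM. Markers of neighbouring tissue varied between libraries: summed thalamus and habenula markers ranged from 159 to 1099 CPM and summed choroid plexus markers from 243 to 10782 CPM.

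In deposited TPM, median levels ran from 0.164 to 1239 TPM. Camk2a, the alpha subunit of the calcium- and calmodulin-dependent kinase, had the highest median over the 15 libraries, 1239 TPM (504 to 1514), and its partner Camk2b had 307 TPM (139 to 406). Camk2a thus made up 79.8% ± 1.302 of the TPM of Camk2a and Camk2b together (SD, n = 15). Other CaMKII genes are not in the set.

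The AMPA receptors were mostly Gria1 and Gria2. Gria1, which is brought to synapses when they are strengthened, had a median of 355 TPM (161 to 440.5) and Gria2, the subunit whose edited form keeps calcium out of the channel, 210 TPM (140 to 264). Gria3, encoded on the X chromosome, had 89.5 TPM (52.1 to 98.8) and Gria4 31.9 TPM (19.4 to 43.1). As shares of AMPA receptor TPM, Gria1 took 50.4% ± 4.48, Gria2 31.7% ± 3.97, Gria3 13.2% ± 0.481 and Gria4 4.63% ± 0.83.

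Among the NMDA receptors, Grin1, the glycine-binding subunit that every such receptor contains, had 148 TPM (76.2 to 199.8). The glutamate-binding subunits Grin2b and Grin2a were close to each other, with 64.5 TPM (41.4 to 76.3) and 62.5 TPM (33.9 to 68.3). Grin2c had 25.6 TPM (11.2 to 42.4), Grin2d, a subunit of early development and interneurons, 6.84 TPM (5.61 to 16.6) and Grin3a, a glycine-binding subunit that lowers calcium passage, 10.8 TPM (5.47 to 12.97). Grin3b was near the limit of detection, with 0.164 TPM (0.0439 to 0.326) and a mean of 10 counts per library.

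Kainate receptor transcripts were led by Grik5, a high-affinity subunit that needs a partner, with 111 TPM (45.0 to 150.1), or 61.9% ± 4.31 of the class. Grik2, a subunit that forms channels by itself, had 32.5 TPM (21.3 to 44.7), followed by Grik4 with 15.02 TPM (7.96 to 20.9), Grik3 with 8.45 TPM (3.31 to 10.8) and Grik1 with 6.85 TPM (3.22 to 8.80). Grid1, of the delta receptors that bind presynaptic partners through cerebellins, had 12.7 TPM (5.49 to 17.2).

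Of the metabotropic receptors, the Gq-coupled Grm5 had 78.4 TPM (42.0 to 103) and made up 49.5% ± 3.60 of the 6 receptors in the set. The other members couple to Gi: Grm7 had 29.1 TPM (12.98 to 36.2), Grm3 27.1 TPM (10.4 to 31.3), Grm2 15.8 TPM (7.63 to 21.4), Grm4 6.74 TPM (3.07 to 15.3) and Grm8 3.43 TPM (1.10 to 4.74). Grm3 is known from astrocytes as well as neurons, and Grm4, Grm7 and Grm8 sit mainly on axon terminals.

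Among the scaffolds, Dlg4, which encodes PSD-95, had 291 TPM (138 to 367) and Dlg2, which encodes PSD-93, 157 TPM (86.6 to 174). Dlg3, which encodes SAP102, had 57.0 TPM (20.7 to 71.0) and Dlg1, which encodes SAP97, 45.1 TPM (24.9 to 55.3). A second feature named Dlg2, lying upstream of the first on chromosome 7 and much shorter, had 1.61 TPM (0.81 to 4.44). Dlgap1, which links the Dlg proteins to Shank, had 129 TPM (72.7 to 164). The Shank proteins, which connect Dlgap to Homer and actin, were led by Shank1 with 160 TPM (105 to 222), ahead of Shank3 with 83.3 TPM (44.2 to 169) and Shank2 with 34.6 TPM (21.1 to 54.8). The Homer proteins, which bind the group I metabotropic receptors, lay close together: Homer3 had 38.5 TPM (23.9 to 63.2), Homer1 34.0 TPM (17.2 to 52.5) and Homer2 28.5 TPM (14.0 to 33.6).

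**Figure D1:**
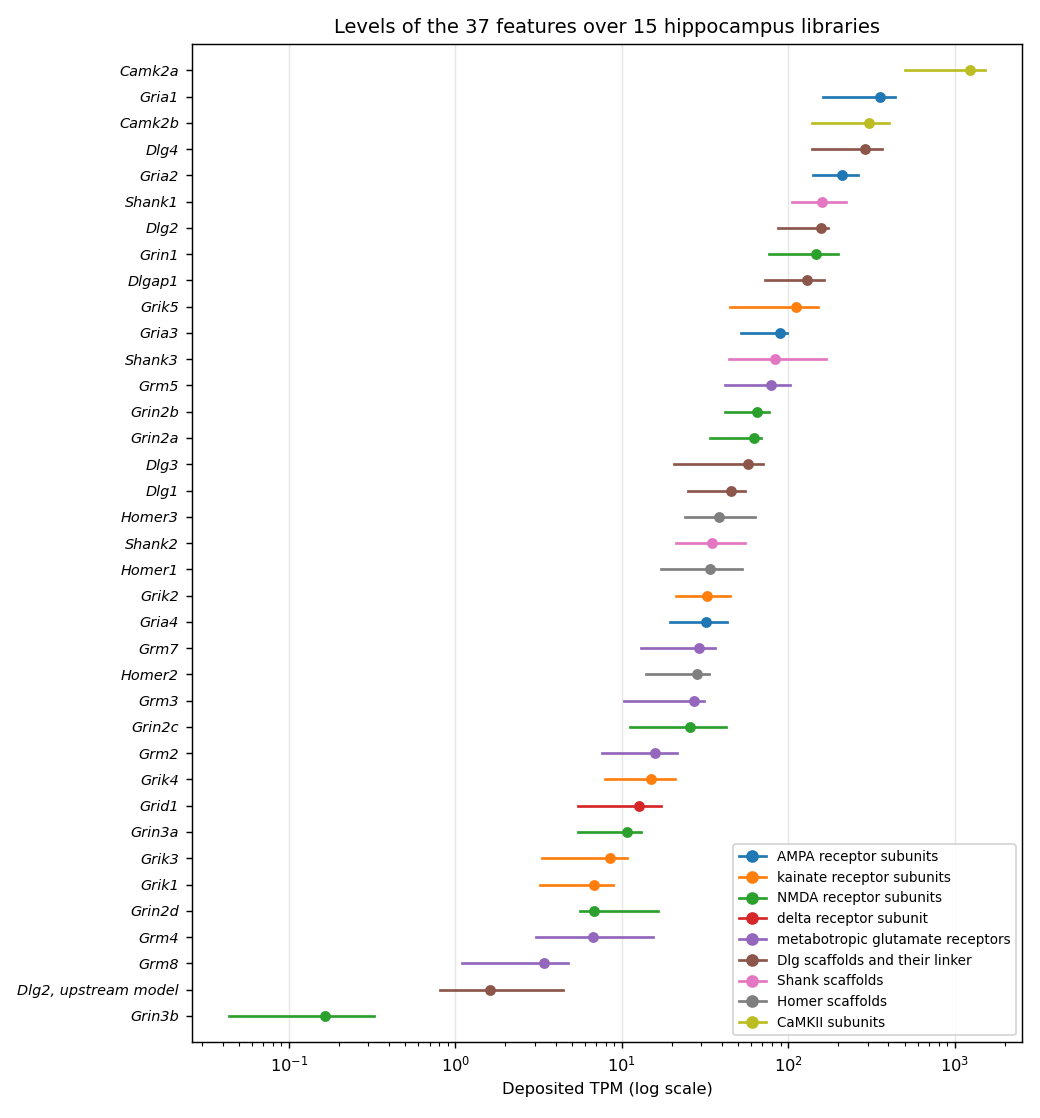
Deposited TPM of the 37 features on a log axis, in order of their median; points are medians over the 15 libraries, lines run from the lowest to the highest library, and colours give the role. Camk2a stands highest at 1239 TPM and Grin3b lowest at 0.164 TPM.

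The effect of ovariectomy without xanthohumol was read from OVX saline against sham saline. Grin2b was lower and Grin2c higher in OVX saline than in sham saline, and no other member passed the test. These 2 of 37 features stand against 6.24% of all 19969 genes past edgeR's quasi-likelihood test at a Benjamini-Hochberg adjusted p under 0.05. By direction, 1 member stands against 3.65% of genes called higher and 1 against 2.59% called lower. The members' share is close to that background. Of the genes past the test, 728 were higher and 518 lower, and scaling to the nuclear-encoded total in place of TMM made these 1626 and 360, with the median of all genes at 0.11.

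Grin2b lies on chromosome 6 (135713233 to 136173511, minus strand, GRCm38.p6). It had 747, 668, 736 and 771 CPM in OVX saline, against 912, 979 and 1143 CPM in sham saline. Every OVX saline library was below every sham saline library. The log2 fold change was -0.47 (SE 0.11, edgeR adjusted p = 0.0291). In these bulk samples, fewer cells that express a gene and less of its RNA per cell cannot be told apart. The summed level of 8 neuronal markers was also lower without overlap, at 5479 to 6050 CPM in OVX saline and 6319 to 7363 CPM in sham saline, with 0 of the 8 past the edgeR test, 5 below 0 and neither defining marker, Rbfox3 or Snap25, at 0 in any library. Its part in the Grin2b difference was not tested. The Grin2b call was lost without any 1 of the 4 OVX saline libraries or without sham saline 2 or 3, with adjusted p of up to 0.107, and on log2 TPM the value was 0.12 where the median of all genes shifted to 0.47.

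Grin2c encodes an NMDA receptor subunit known from cerebellum, thalamus and astrocytes, and lies on chromosome 11 (115249169 to 115267243, minus strand). It had 75.4, 74.1, 89.5 and 80.5 CPM in OVX saline, against 39.2, 57.5 and 46.9 CPM in sham saline. Again the groups did not overlap, with every OVX saline library higher. The log2 fold change was 0.74 (SE 0.20, edgeR adjusted p = 0.0427). Of 10 astrocyte markers, 2 rose and 1 fell, with a median log2 fold change of 0.33 and neither Aqp4 nor Gja1 at 0 in any library. Their summed level was 2100 to 2416 CPM in OVX saline and 1883 to 2180 CPM in sham saline, which overlap, and its part was not tested. The 12 thalamus and habenula markers, of which 0 passed, all lay below 0, with a summed level of 159 to 580 CPM in OVX saline and 221 to 856 CPM in sham saline. The Grin2c call was kept without OVX Xmo 1, 2 or 4 or sham Xmo 1, and lost without any 1 of the other 11 libraries, with adjusted p of up to 0.115.

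**Figure D2:**
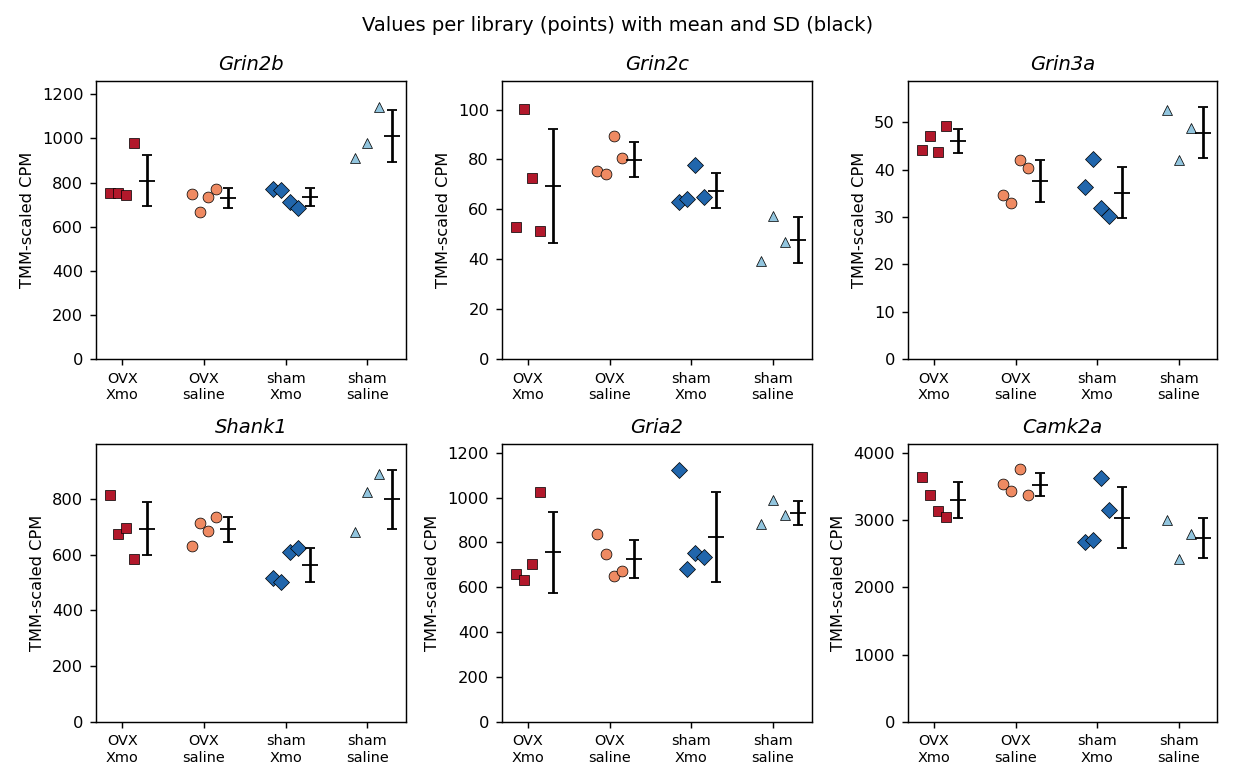
TMM-scaled CPM of 6 members in every library by group, with mean and SD in black (n = 4, or 3 for sham saline). Grin2b in OVX saline (668 to 771) lies below sham saline (912 to 1143), Grin2c (74.1 to 89.5) lies above it (39.2 to 57.5), and single OVX Xmo and sham Xmo libraries stand high in Grin2b, Grin2c and Gria2.

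Other members separated the same groups without passing, and are named here after their values were seen. Groups did not overlap for 6 lower members, against 11.6% of all genes, and for 5 higher members, against 12.9%. The lower ones beside Grin2b were Gria2, Gria4, Grik2, Grm5 and Dlgap1, and the higher ones beside Grin2c were Grm3, Camk2a, Grik5 and Dlg3. Gria2 had 836, 750.1, 651 and 670.2 CPM in OVX saline, against 884, 988 and 922 CPM in sham saline (log2 fold change -0.36, SE 0.18, edgeR adjusted p = 0.241). Camk2a had 3537, 3433, 3763 and 3380 CPM in OVX saline, against 3002, 2418 and 2796 CPM in sham saline (0.37, SE 0.12, edgeR adjusted p = 0.0810). Grm3 had 40.5, 50.3, 46.6 and 42.7 CPM in OVX saline, against 37.7, 33.3 and 38.0 CPM in sham saline (0.31, SE 0.09, edgeR adjusted p = 0.0592). In each of these 3, every library of 1 group lay beyond every library of the other, and none passed after adjustment over all genes.

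Over the whole set, 26 of 37 log2 fold changes lay below 0, with a median of -0.13 against 0.01 for all genes tested. With scaling to the nuclear-encoded total, 21 lay below 0 and the medians were -0.02 for members and 0.11 for all genes, and on log2 TPM 0 lay below 0 and the medians were 0.46 and 0.47. At an unadjusted p under 0.05 there were 11 members, where 24.7% of all genes were; 4 were higher, against 13% of all genes, and 7 lower, against 11.7%. By class, on the TMM scale, the medians were -0.27 for AMPA receptors, -0.17 for kainate receptors, -0.13 for NMDA receptors, -0.22 for metabotropic receptors, -0.13 for the Dlg proteins with Dlgap1, -0.08 for Shank (0.03 with the nuclear-encoded total), -0.15 for Homer and 0.24 for CaMKII. Long genes as a whole lay lower on this scale: the 2435 genes that span over 100 kb had a median of -0.12, with 4.23% called lower and 1.23% called higher, and the 22 members of that length had -0.17. The 7286 genes under 10 kb had a median of 0.09.

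**Figure D3:**
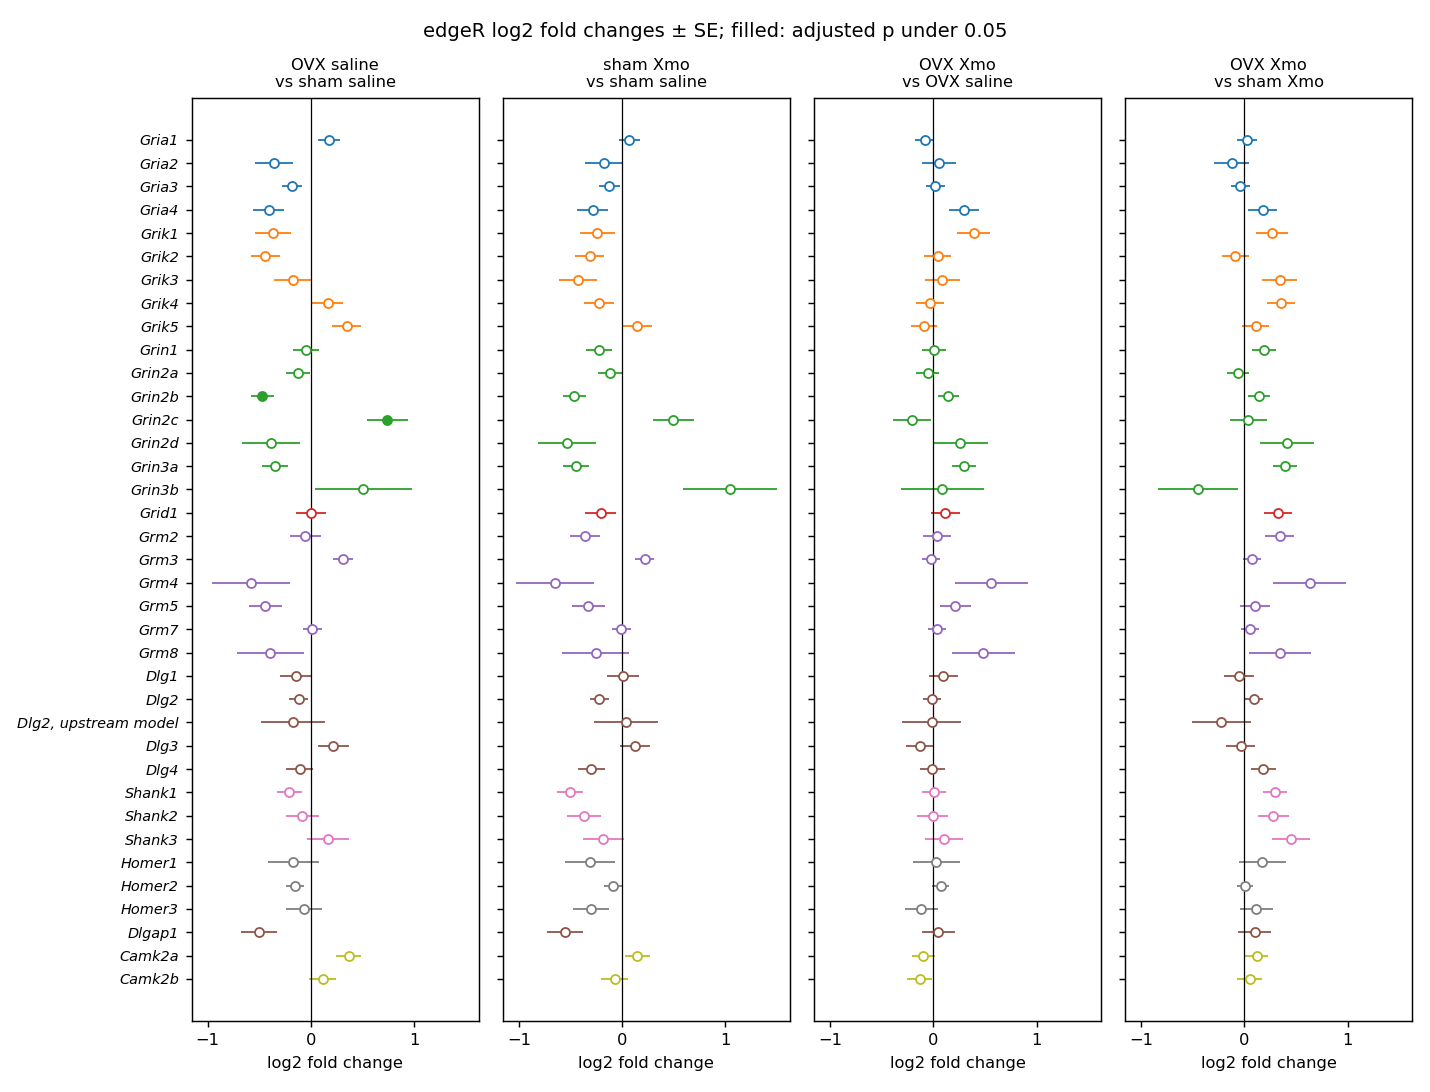
edgeR log2 fold changes with standard errors for the 37 features in 4 comparisons, coloured by role; filled points have an adjusted p under 0.05. Filled points appear in the OVX saline against sham saline panel for Grin2b (-0.47) and Grin2c (0.74) and in no other panel.

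The balance within a receptor class does not depend on the scaling between libraries, but can differ between TPM and counts. It is described without a test. The Gria1 to Gria2 ratio in TPM was 1.74, 1.61, 1.98 and 2.01 in OVX saline and 1.28, 1.15 and 1.40 in sham saline, without overlap. It was 2.02, 1.80, 1.61 and 1.41 in OVX Xmo and 0.998, 1.84, 1.85 and 1.68 in sham Xmo. In TPM every OVX Xmo library was thus also above the sham saline range of 1.15 to 1.40, and the lowest ratio of all was in sham Xmo 1. In counts, OVX Xmo 4 (29211 of Gria1 to 27492 of Gria2) lay inside the sham saline range. It fell between sham saline 1 (26243 to 25317) and sham saline 3 (24763 to 22480). Gria2 took 30.4% ± 3.11 of AMPA receptor TPM in OVX Xmo, 29.4% ± 2.14 in OVX saline, 32.4% ± 5.57 in sham Xmo and 35.7% ± 1.96 in sham saline (SD, n = 4, 4, 4 and 3). The Grin2a to Grin2b ratio was 0.940 ± 0.0554 in OVX Xmo, 1.04 ± 0.175 in OVX saline, 1.03 ± 0.0978 in sham Xmo and 0.857 ± 0.0852 in sham saline (SD). In TPM the ranges of this ratio overlapped for every pair of groups. The lowest OVX saline library, 0.844, lay inside the sham saline range of 0.798 to 0.955. In counts, by contrast, the Grin2a to Grin2b ratio of every sham saline library was below that of every library of the other groups. The highest in sham saline was library 1 (12558 to 26121). The lowest in OVX saline was library 4 (9692 to 18978), and the lowest in OVX Xmo was library 2 (13199 to 26785).

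Gria2 was set beside the mitochondrial share of counts in each library. In each of the 4 groups the library with the highest mitochondrial share also had the highest Gria2: OVX Xmo 4 (17.8%, 1025 CPM), OVX saline 1 (17.5%, 836 CPM), sham Xmo 1 (20.6%, 1121 CPM) and sham saline 2 (35.4%, 988 CPM). The same held for Gria3 and Grik2, so for 3 of 37 members, against 4.26% of all genes tested. Sham saline also had the highest mitochondrial share of the groups, and the part of this share in the group differences of these members was not tested. The Gria1 to Gria2 ratio in TPM was the lowest of its group in OVX Xmo 4 (1.41), sham Xmo 1 (0.998) and sham saline 2 (1.15). In OVX saline the lowest ratio was in library 2 (1.61) and not in library 1 (1.74). The part of the share in this ratio was not tested either. Across groups the order of Gria2 differed: sham saline 2 had the highest share but less Gria2 than OVX Xmo 4 and sham Xmo 1.

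**Figure D4:**
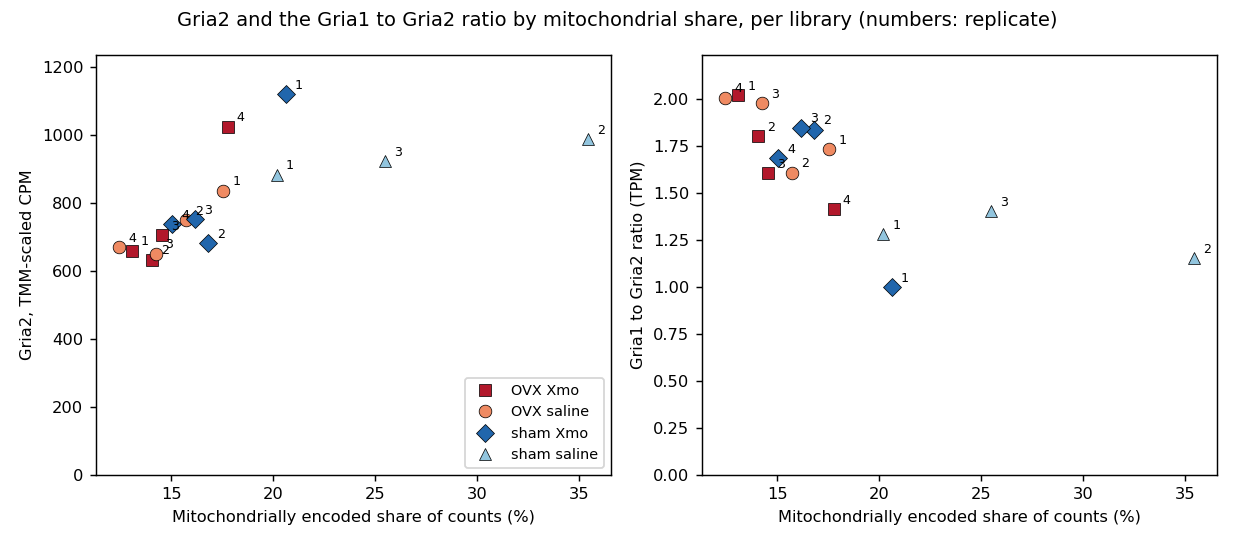
Gria2 in TMM-scaled CPM (left) and the Gria1 to Gria2 ratio in TPM (right) against the share of counts from the mitochondrial genome, 1 point per library, numbered by replicate. OVX Xmo 4 (1025 CPM) and sham Xmo 1 (1121 CPM) have the highest Gria2 of all and a ratio of 1.41 and 0.998.

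The effect of xanthohumol in sham-operated mice was read from sham Xmo against sham saline, which shares the 3 sham saline libraries with the comparison above. No member passed the edgeR test, where 1.51% of all genes did, and 13 members had an unadjusted p under 0.05, where 18.4% of all genes did. Of these, 3 were higher, against 10.6% of all genes, and 10 lower, against 7.9%. DESeq2 called 4 members, Dlgap1, Grin2b, Grin3a and Shank1, all lower. It called 1110 of all 19969 genes, 566 higher and 544 lower. The median log2 fold change was -0.23, against 0.03 for all genes, and 28 of 37 lay below 0. With scaling to the nuclear-encoded total, 25 lay below 0 and the medians were -0.11 for members and 0.14 for all genes, while on log2 TPM 2 lay below 0 and the medians were 0.30 and 0.42. On the TMM scale the Shank and Homer classes lay wholly below 0, with medians of -0.37 and -0.30, and with the nuclear-encoded total 3 of 3 Shank and 2 of 3 Homer genes did, while on log2 TPM none did. All genes past the test were 144 higher and 158 lower, or 897 and 157 with the nuclear-encoded total.

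The members with the smallest p were Grin2b, Shank1 and Grin3a. Grin2b had 771, 764, 714 and 685 CPM in sham Xmo, against 912, 979 and 1143 CPM in sham saline (log2 fold change -0.46, SE 0.11, edgeR adjusted p = 0.0512). Shank1 had 517, 503, 611 and 623 CPM in sham Xmo, against 683, 823 and 889.8 CPM in sham saline (-0.50, SE 0.12, edgeR adjusted p = 0.0536). Both were lower in sham Xmo without overlap. Grin3a had 36.5, 42.2, 31.8 and 30.2 CPM in sham Xmo, against 52.7, 42.1 and 48.8 CPM in sham saline (-0.44, SE 0.12, edgeR adjusted p = 0.0825), and its groups overlapped between 42.1 and 42.2 CPM. Leaving out 1 library brought members past the test, all lower: Grin2b and Shank1 without sham saline 1, Grin2b without sham Xmo 1, Shank1 without OVX Xmo 1, and Dlgap1, Grin2b and Shank1 without OVX Xmo 4. Groups did not overlap for 5 lower members, against 5.33% of all genes, and for 3 higher members, against 8.89%. Named after their values were seen, the lower ones were Grin2b, Shank1, Shank2, Dlgap1 and Grm4, and the higher ones were Grin2c, Grm3 and Grin3b. The neuronal marker sum was 4839 to 5691 CPM in sham Xmo and 6319 to 7363 CPM in sham saline, again without overlap. All 10 choroid plexus markers lay above 0, with a median log2 fold change of 1.35 and 0 past the test. Their sum was 353, 2341, 2688 and 10782 CPM in sham Xmo and 1793, 651 and 377 CPM in sham saline, which overlap. Sham Xmo 4, with the most of these markers, had the lowest neuronal sum. The part of either sum was not tested.

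The effect of xanthohumol after ovariectomy was read from OVX Xmo against OVX saline. No member and no gene passed the edgeR test, so the background was 0%. At an unadjusted p under 0.05 there were 2 members, Grin3a and Grik1, against 4.18% of all genes. Both were higher, against 2.03% of all genes, and DESeq2 called 0 members and 3 genes. The median was 0.04 for the members and 0.00 for all genes. Grin3a had 44.3, 47.0, 43.7 and 49.2 CPM in OVX Xmo, against 34.6, 33.0, 42.1 and 40.4 CPM in OVX saline (log2 fold change 0.30, SE 0.12, edgeR adjusted p = 0.998). Grik1, a kainate receptor subunit common in interneurons, had 11.4, 13.3, 15.4 and 13.9 CPM in OVX Xmo, against 9.34, 9.78, 11.2 and 10.8 CPM in OVX saline (0.39, SE 0.16, edgeR adjusted p = 0.998). Gria4, an AMPA subunit also rich in interneurons, had 84.4, 103, 82.2 and 89.3 CPM in OVX Xmo, against 67.3, 67.8, 80.3 and 76.3 CPM in OVX saline (0.30, SE 0.14, edgeR adjusted p = 0.998). These 3 were the members whose groups did not overlap, all higher in OVX Xmo, against 1.39% of all genes. The sum of 10 GABA interneuron markers was 665 to 818 CPM in OVX Xmo and 664 to 699 CPM in OVX saline, which overlap. Of these markers 8 lay above 0 and 2 below, with a median log2 fold change of 0.22. All 8 CA1 pyramidal cell markers lay above 0 (median 0.24) and all 10 granule cell markers below 0 (median -0.24). In each of these lists 0 passed the test, and their part was not tested.

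Grin2b and Grin2c did not pass here. Grin2b had 754, 752, 745 and 981 CPM in OVX Xmo, where 3 libraries lay inside the OVX saline range of 668 to 771 CPM (log2 fold change 0.15, SE 0.10). Grin2c had 53.0, 100.1, 72.7 and 51.4 CPM in OVX Xmo, on both sides of the OVX saline range of 74.1 to 89.5 CPM (-0.20, SE 0.18).

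Ovariectomy under xanthohumol, OVX Xmo against sham Xmo, also gave 0 members past the edgeR test, against 0.01% of all genes. DESeq2 called 0 members and 76 genes. At an unadjusted p under 0.05 there were 6 members, against 10.2% of all genes. All were higher, against 4.79% of all genes: Grin3a, Grik4, Shank1, Grm2, Shank3 and Grid1. Grin3a had 44.3, 47.0, 43.7 and 49.2 CPM in OVX Xmo, against 36.5, 42.2, 31.8 and 30.2 CPM in sham Xmo (log2 fold change 0.39, SE 0.12, edgeR adjusted p = 0.320). Grik4, a high-affinity kainate subunit known from CA3, had 51.8, 56.6, 42.8 and 43.8 CPM in OVX Xmo, against 37.9, 33.0, 48.6 and 33.0 CPM in sham Xmo (0.36, SE 0.14, edgeR adjusted p = 0.401). Shank1 had 815, 675, 697 and 584 CPM in OVX Xmo, against 517, 503, 611 and 623 CPM in sham Xmo (0.30, SE 0.12, edgeR adjusted p = 0.406). Groups did not overlap for Grin3a and Grid1, both higher, against 2.89% of all genes. The differences of Grin2b and Grin2c between OVX saline and sham saline were not seen here. Grin2b had 808 ± 115 CPM in OVX Xmo and 733 ± 40.9 CPM in sham Xmo (SD). Grin2c had 69.3 ± 22.7 CPM in OVX Xmo and 67.5 ± 6.95 CPM in sham Xmo (SD). The median over the members was 0.12, against -0.02 for all genes, and 29 of 37 lay above 0. The neuronal marker sum was 6050 to 6734 CPM in OVX Xmo and 4839 to 5691 CPM in sham Xmo, without overlap. All 10 choroid plexus markers lay below 0, with a median log2 fold change of -1.85 and 0 past the test. Their sum was 243 to 2383 CPM in OVX Xmo and 353 to 10782 CPM in sham Xmo, which overlap. The part of either sum was not tested.

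Whether xanthohumol acted differently after ovariectomy was tested as an interaction, the xanthohumol effect in ovariectomized mice minus that in sham-operated mice. No member passed in edgeR, against 0.416% of all genes, and 9 members had an unadjusted p under 0.05, against 17.4% of all genes. Of these, 8 lay above 0, against 7.7% of all genes, and 1 below, against 9.68%. DESeq2 called Grin2b and Grin3a, both above 0, and 852 of all 19969 genes, 447 above 0 and 405 below. The difference of log2 fold changes was 0.74 for Grin3a (SE 0.17, edgeR adjusted p = 0.0667), 0.61 for Grin2b (SE 0.15, edgeR adjusted p = 0.0776) and 0.51 for Shank1 (SE 0.17, edgeR adjusted p = 0.148). Grin3a passed when sham Xmo 2 or sham saline 2 was left out. The median over members was 0.23, against -0.02 for all genes. With the nuclear-encoded total these were 0.09 and -0.16, and on log2 TPM -0.30 and -0.42 (members first), so the members' median changed sign on log2 TPM while that of all genes lay below 0 on each of these scales. Genes past the test were 54 above 0 and 29 below, or 60 and 299 with the nuclear-encoded total.

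Grm4, a presynaptic receptor known from thalamus and cerebellum, varied among libraries of the same group. It had 18.9, 33.7, 19.6 and 12.1 CPM in OVX Xmo and 7.23, 10.9, 22.3 and 16.8 CPM in OVX saline, and 16.6, 17.3, 7.10 and 13.5 CPM in sham Xmo and 23.1, 23.7 and 17.4 CPM in sham saline. The highest and lowest libraries thus differed 4.75-fold. In each of the 4 groups, the library with the most summed thalamus and habenula markers also had the most Grm4 and the most Grin2d: OVX Xmo 2 (1099 CPM of markers), OVX saline 3 (580 CPM), sham Xmo 2 (743 CPM) and sham saline 2 (856 CPM). This held for 2 of 37 members, against 1.81% of all genes tested. The same 4 libraries also had the most summed CA2 and CA3 pyramidal cell markers of their groups (899, 663, 740 and 780 CPM in the same order), so the 2 marker sums cannot be told apart by this order. The part of either in these levels was not tested. OVX Xmo 2 also had the highest Shank3 of all libraries, 495 CPM, and the highest Grin2c, 100.1 CPM.

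**Figure D5:**
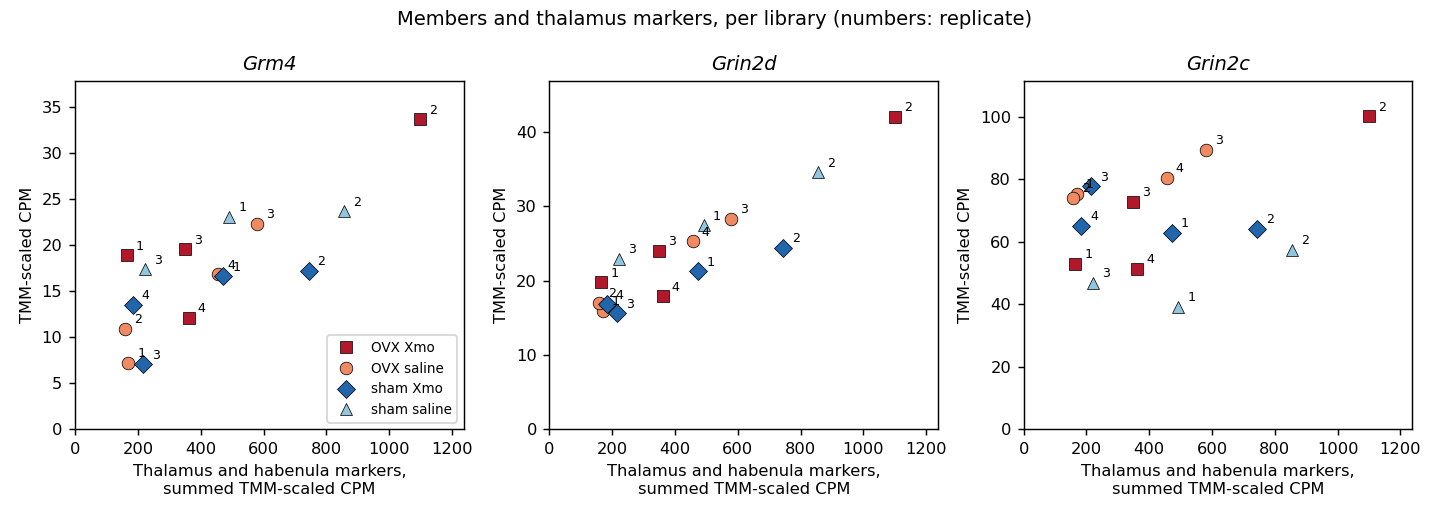
Grm4, Grin2d and Grin2c in TMM-scaled CPM against summed thalamus and habenula markers, 1 point per library, numbered by replicate. OVX Xmo 2, at 1099 CPM of markers, is the highest point in all 3 panels.

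Proteins that work with these receptors were counted from lists of genes other than the members. Of 18 auxiliary subunits of ionotropic receptors, 1 rose and 2 fell in OVX saline against sham saline, with a median of -0.14, where 6.24% of all genes passed and their median was 0.01. Cacng2, or stargazin, which carries AMPA receptors to the synapse, had 56.1 ± 8.29 CPM in OVX saline and 92.7 ± 17.6 CPM in sham saline (log2 fold change -0.72, SE 0.15, edgeR adjusted p = 0.0191). Shisa9, another AMPA receptor partner, had 73.4 ± 6.29 CPM in OVX saline and 108 ± 18.2 CPM in sham saline (-0.56, edgeR adjusted p = 0.0433). Cnih2, a cornichon that exports AMPA receptors, had 353 ± 27.0 CPM in OVX saline and 263 ± 21.4 CPM in sham saline (0.42, edgeR adjusted p = 0.0494).

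In sham Xmo against sham saline, 3 of these 18 fell and 0 rose, with a median of -0.35, where 1.51% of all genes passed and their median was 0.03. Cacng2 had 53.2 ± 8.32 CPM in sham Xmo and 92.7 ± 17.6 CPM in sham saline (-0.80, edgeR adjusted p = 0.0246). Nptxr, a pentraxin receptor that gathers AMPA receptors, had 327 ± 61.7 CPM in sham Xmo and 560 ± 107 CPM in sham saline (-0.77, edgeR adjusted p = 0.0293). Shisa6, which slows AMPA receptor desensitisation, had 134 ± 17.2 CPM in sham Xmo and 196 ± 28.8 CPM in sham saline (-0.56, edgeR adjusted p = 0.0387).

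Of 20 other postsynaptic density proteins, Dlgap4, a relative of Dlgap1, fell in both comparisons with sham saline and the other 19 did not pass, against the same shares of all genes. Its log2 fold change was -0.46 in OVX saline (edgeR adjusted p = 0.0326) and -0.50 in sham Xmo (edgeR adjusted p = 0.0407). Of 17 postsynaptic kinases, phosphatases and anchors, Cdk5, a neuronal kinase, rose by 0.44 and Prkaca, the catalytic subunit of protein kinase A, fell by 0.47 in OVX saline against sham saline (edgeR adjusted p = 0.0132 and 0.0280). Prkaca fell by 0.59 in sham Xmo against sham saline (edgeR adjusted p = 0.0249). None of 16 postsynaptic adhesion proteins or 15 genes of glutamate transport and supply passed in either. In OVX Xmo, 0 genes of these lists passed against OVX saline or against sham Xmo. In the interaction Cacng2 (1.01), Prkaca (0.79) and Dlgap4 (0.78) passed, where 0.416% of all genes did, all above 0 (edgeR adjusted p = 0.0477, 0.0410 and 0.0442). Of 15 fits that each left out 1 library, Cacng2 passed in 4, Prkaca in 4 and Dlgap4 in 3. Each of these 14 calls was lost without sham saline 3. In OVX saline against sham saline, Cdk5 kept its call without each of the other 14 libraries, Cacng2 without 12 libraries and Cnih2 without 3. On log2 TPM the direction turned in OVX saline against sham saline for Shisa9 (0.12), Dlgap4 (0.17) and Prkaca (0.15), where the median of all genes was 0.47, and in sham Xmo against sham saline for Dlgap4 (0.06).

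Counting adds uncertainty for members that overlap other genes, since the sources used here do not say whether strand was used. Grin1 shares 7706 bases with the antisense gene Grin1os, Grin2d shares 5607 bases with Kdelr1, and Grin3b, Homer3, Grm7 and Grik3 also overlap a neighbour. Reads from such a stretch cannot be told apart.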

How the data were processed

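RNA from hippocampi was sequenced in 15 mRNA libraries; 12 miRNA libraries are not used here. Per the submitters' processing notes, the tools were Bowtie2 2.3.2, StringTie 1.3.3b, Trimmomatic 0.36 and FastQC 0.11.2, on GRCm38.p6. Not given in the sources used here are the tool that counted and its strand setting. The gene table deposited by the authors holds whole-number read counts and TPM values per library, per the file headers; FPKM was not used. A further 12 columns match no sample and were not used. Counts (between 20848661 and 39140593 per library) were filtered with edgeR's filterByExpr by group (minimum count 10), scaled by TMM and fitted with the quasi-likelihood model to all 4 groups (11 residual degrees of freedom), with Benjamini-Hochberg adjustment over 19969 genes and a threshold of 0.05. Adjusted p-values come from edgeR unless stated. The model was tested on simulated data. Alternatives were DESeq2, RLE factors, the nuclear-encoded total, no filter, 2 groups per fit, a replicate block, limma on log2(TPM + 1), and leaving out each library. Promoters came from RefSeq (GRCm38.p6).

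Members, gene lists and tests were chosen with earlier results of these data known. The naming rule gave every member with its level, each member past a test with its values, otherwise the 3 with the smallest p, and at most 3 passing genes per further list. Tests ran in DESeq2 1.42.0, edgeR 4.0.16 and limma 3.58.1 under R 4.3.3. No 2 libraries held identical counts.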

Additional observations from a re-analysis of the deposited data

Results flagged for a closer look

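In groups of 4 libraries, 9 of 111 combinations of member and group had a library far from the other 3; chance alone gives about 5% of groups. OVX Xmo 4 stood high in Grin2a (493 CPM, others 370 to 390 CPM), Grin2b (981 CPM, others 745 to 754 CPM) and Grm5 (329.6 CPM, others 205 to 226 CPM), and it had the highest mitochondrial share of its group, 17.8%. Sham Xmo 1, with the highest mitochondrial share of its group, 20.6%, stood high in Gria2 (1121 CPM, others 681 to 753 CPM). Grid1 stood high in OVX Xmo 1 (48.1 CPM, others 44.0 to 44.7 CPM), Dlg3 in OVX saline 4 (152 CPM, others 146 to 147 CPM) and Homer2 in OVX saline 3 (124 CPM, others 112 to 114 CPM). Grin2c stood high in sham Xmo 3 (77.8 CPM, others 62.9 to 65.1 CPM) and Grik3 in sham Xmo 4 (40.2 CPM, others 31.4 to 32.4 CPM). Sham saline, with 3 libraries, was not examined in this way.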

How the results depend on the processing

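Calls were few and depended on the settings. In OVX saline against sham saline the 2 members and 1246 genes past the test became 6 and 2322 with DESeq2, 4 and 1986 with the nuclear-encoded total, 0 and 568 without the filter on low counts, and 17 (all higher) and 9425 with limma on log2(TPM + 1). With only the 2 groups compared in the fit, 6 members passed, 1 higher and 5 lower. Of 18866 genes in that fit, 565 were called higher and 637 lower. On log2(TPM + 1) Grin2b was 0.12, while the median of all genes was 0.47. Sham Xmo against sham saline gave 0 members and 302 genes. These became 4 and 1110 with DESeq2, and 10 (all higher) and 7030 with limma. With RLE factors 2 members passed, both lower, where 134 genes were called higher and 198 lower. Genes of this comparison were 1054 with the nuclear-encoded total, 108 without the filter and 6 with 2 groups in the fit. OVX Xmo against OVX saline gave 0 genes, 3 with DESeq2 and 1 with 2 groups in the fit. OVX Xmo against sham Xmo gave 2 genes, 76 with DESeq2, and 0 with 2 groups in the fit and with limma. In the interaction 0 members and 83 genes became 2 and 852 with DESeq2 and 1 and 1753 with limma, and the genes were 359 with the nuclear-encoded total and 20 without the filter. The cause of these shifts was not tested.

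With a replicate block, 0 members passed in any comparison, and genes past the test were 178, 37, 0, 0 and 11 in the order above. Of 21 pairs of libraries with the same number in different groups, 4 had deviations correlated above 0.1 (median -0.03). Of 63 pairs with different numbers, 17 did (median 0.02). Libraries with the same number were thus not more alike by this measure, which cannot exclude a pairing.

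Leaving out 1 library at a time gave 80 to 1706 genes and 0 to 6 members in OVX saline against sham saline, where genes numbered 475, 258, 433 and 269 without OVX saline 1, 2, 3 and 4, 186 without sham saline 2 and 80 without sham saline 3. The 6 members, without OVX Xmo 4, were Grin2c and Grm3 (higher) and Dlgap1, Grik2, Grin2b and Grm5 (lower), and without sham Xmo 1 Grik2 passed beside Grin2b and Grin2c. It gave 14 to 673 genes and 0 to 3 members in sham Xmo against sham saline, with 126, 27 and 50 genes without sham Xmo 2, 3 and 4, 172 without OVX Xmo 3, 171 and 168 without OVX saline 2 and 3, 14 without sham saline 3, 497 without OVX Xmo 4 and 673 without sham Xmo 1. It gave 0 to 1 genes in OVX Xmo against OVX saline, 0 to 3 in OVX Xmo against sham Xmo, and 6 to 302 genes and 0 to 1 members in the interaction. Grin2b stayed between -0.54 and -0.37 and was called in 9 of these 15 fits. Grin2c stayed between 0.61 and 0.89 and was called in 4.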
